A study of Mus musculus with 5 samples.

Results

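Fetal pre-alveolar macrophages were described in the lungs of mouse embryos that carried 1 or no working copy of Zswim8 according to their labels. They were chosen by a rule on single-cell counts of unique molecular identifiers (UMIs, 1 per captured RNA molecule). Barcodes needed 500 or more genes, with mitochondrial UMIs no higher than 15%, to be kept. A member then needed a UMI of Tyrobp or Laptm5, which mark myeloid cells, and of at least 3 of the 6 markers Ear2, Lpl, Plet1, Abcg1, Olr1 and Axl. It could show at most 1 of the 4 maturation genes Car4, Krt79, Atp6v0d2 and Fabp4, and at most 2 of C1qa, C1qb, C1qc and Ms4a7. It had no UMI of the epithelial, endothelial or mesenchymal markers Epcam, Cdh5 and Pdgfra, and not both Mki67 and Top2a, which mark dividing cells. Of 19491 kept barcodes among 50355 deposited, 2681 met the rule.

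Alveolar macrophages are the resident phagocytes of the air spaces. They arise from fetal monocytes that enter the lung before birth and pass through an immature stage, driven by GM-CSF from the epithelium and by TGF-beta, both of which act through the nuclear receptor PPAR-gamma. Maturing cells gain genes for the uptake and breakdown of surfactant lipids, while a separate class of macrophages in the lung interstitium keeps making complement C1q. ZSWIM8 is the substrate adaptor of a Cullin ubiquitin ligase that degrades Argonaute proteins when a microRNA is bound to a trigger transcript, so that the microRNA is lost too.

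The lungs came from 2 Zswim8+/- embryos (Het1 and Het2) and 3 Zswim8-/- embryos (KO1, KO2 and KO3), all at E18.5, with 1 droplet-based 3′ library of dissociated whole lung per embryo. There was no wild-type group, so every difference is between the knockout and the heterozygote. The labels do not give the allele, the litter or a batch. Xist and Y-linked UMIs showed that Het1, Het2 and KO3 came from males and KO1 and KO2 from females, so that genotype and sex are partly confounded. In total 252 to 748 members per library gave 3820856 to 10326784 UMIs, and 17 to 44 barcode sequences were shared by each pair of libraries, of which 1 was a member in both.

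The targeted gene itself was measured first. Zswim8 (ENSMUSG00000021819, GRCm38 chr14:20707552-20723619, plus strand, protein-coding) had 37.1 and 36.0 CPM (UMIs per 1000000 UMIs of all members of a library, TMM-scaled) in Het1 and Het2, against 28.4, 32.6 and 35.1 CPM in KO1 to KO3. The groups did not overlap, but the difference did not pass the test (log2 fold change -0.17, SE 0.10, edgeR adjusted p = 0.375). Counts from the 3′ end can come from a disrupted transcript. The level therefore does not check the labels, and the libraries are called KO-labelled below.

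The markers of the rule are given as a description, since they chose the cells. Ear2, an eosinophil-associated ribonuclease of lung macrophages, stood at 622 and 539 CPM in the Het libraries (Het1 first, here and below) and at 456, 394 and 463 CPM in KO1 to KO3. Lpl, lipoprotein lipase, was at 1499 and 1397 CPM against 1169, 1036 and 1094 CPM. Olr1, a scavenger receptor for oxidised lipoprotein, was at 233 and 231 CPM against 151, 139 and 143 CPM. These markers were therefore lower in every KO-labelled library, and Plet1 (702 and 729.8 against 616, 472 and 455 CPM) and Abcg1 (505 and 468 against 408, 387 and 415 CPM) had the same order. Axl ran from 453 to 489 CPM in Het and from 402 to 433 CPM in KO-labelled members.

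Members near the edge of the rule also differed between the groups. All 6 markers were found in 58.9% ± 5.18 (SD, n = 2) of the members in Het and in 46.1% ± 4.62 (SD, n = 3) of those in KO-labelled libraries, although the median depth was lower in Het (13715 and 13857 UMIs) than in KO-labelled members (15313, 14904 and 15219). Just inside the rule, 51, 68, 18, 48 and 55 members of Het1, Het2, KO1 to KO3 had 3 markers, and just outside it 121, 114, 50, 113 and 105 barcodes met every other condition with 2. Exactly 1 maturation gene was seen in 23.3% ± 0.0023 (SD, n = 2) of the members in Het and 15.8% ± 1.27 (SD, n = 3) of those in KO-labelled libraries. Barcodes that met all other conditions but had 2 maturation genes numbered 70 and 78 in Het and 6, 6 and 14 in KO-labelled libraries. Those with 3 of the 4 C1q-list genes numbered 14 and 8 against 16, 3 and 16. Maturing cells, with at least 2 of the 4 maturation genes, numbered 134 and 121 against 6, 7 and 18.

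Other cell types could add RNA to these sums, so marker lists of 14 classes were read in the members. Of 7 dendritic cell markers Siglech had no UMI and the list summed to 1.76 to 5.66 CPM. The 9 markers of T, NK and innate lymphoid cells summed to 8.44 and 13.4 CPM in Het and 1.32 to 3.99 CPM in KO-labelled members. The neutrophil list of 10 genes ran from 971 to 1297 CPM in Het and from 559 to 1900 CPM in KO-labelled members. Erythroid genes (8, mainly haemoglobin) summed to 12429 to 17965 CPM against 5879 to 12151 CPM. The epithelial list (Epcam at 0 by the rule) ran from 311 to 456 against 248 to 519 CPM, the endothelial list (Cdh5 at 0) from 32.3 to 41.8 against 17.3 to 24.3 CPM, and the mesenchymal list (Pdgfra at 0) from 105 to 267 against 31.5 to 178 CPM. The basophil and mast cell list was at 3.87 and 20.2 CPM against 0.527 to 1.92 CPM, the B cell list at 29.9 to 33.2 CPM throughout, and the monocyte list of 9 genes at 2933 to 2950 against 2617 to 2696 CPM. The general macrophage list of 8 genes summed to 4826 to 5091 CPM in Het and 4089 to 4476 CPM in KO-labelled members, and the C1q list to 14.99 to 30.4 CPM, against 8787 to 10152 CPM in C1q macrophages. The macrophage list holds Tyrobp and Laptm5 (1653 and 1288 CPM in Het1), which the rule used to choose the cells. The rule also limited the C1q list. By these sums monocyte genes and macrophage genes outside the rule were present, and dendritic cell markers were near 0. The erythroid, endothelial, basophil, T cell and dendritic cell sums were higher in both Het libraries than in any KO-labelled one. Their part in the results was not tested unless a value is given.

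The first comparison asked whether the cells were as frequent in both genotypes. Members made up 15.5% of the kept barcodes in Het1 (exact 95% binomial interval 14.5 to 16.6, counting error only) and 17.5% in Het2 (16.3 to 18.7). They made up 8.05% in KO1 (7.12 to 9.06), 12.8% in KO2 (11.7 to 13.97) and 12.98% in KO3 (11.95 to 14.1). The mean over Het libraries was 16.5% ± 1.39 (SD, n = 2), and over KO-labelled ones it was 11.3% ± 2.79 (SD, n = 3). Among barcodes with Tyrobp or Laptm5 the share was 25.4% ± 0.98 (SD, n = 2) against 19.2% ± 0.81 (SD, n = 3). Both shares were lower in each KO-labelled library than in each Het library, with a two-sided exact permutation p = 0.1, the smallest that 2 against 3 libraries allow, so neither can pass a threshold of 0.05. Since the rule counts marker genes that were themselves lower in KO-labelled members, fewer cells and cells with fewer markers cannot be told apart. When members with 3 or more markers of another cell type were left out, the groups overlapped: 9.42% and 12.4% of kept barcodes in Het1 and Het2 against 3.99%, 10.2% and 8.15% in KO1 to KO3 (exact permutation p = 0.4, and 0.3 among barcodes with Tyrobp or Laptm5). That step kept 454 of 748 members in Het1 and 521 of 735 in Het2. In KO1 to KO3 it kept 125 of 252, 338 of 425 and 327 of 521. Most members left out had epithelial markers. With all 6 markers required, the share of kept barcodes was 9.68% against 5.12%, and the ratio of the means moved from 1.46 to 1.89.

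**Figure D1:**
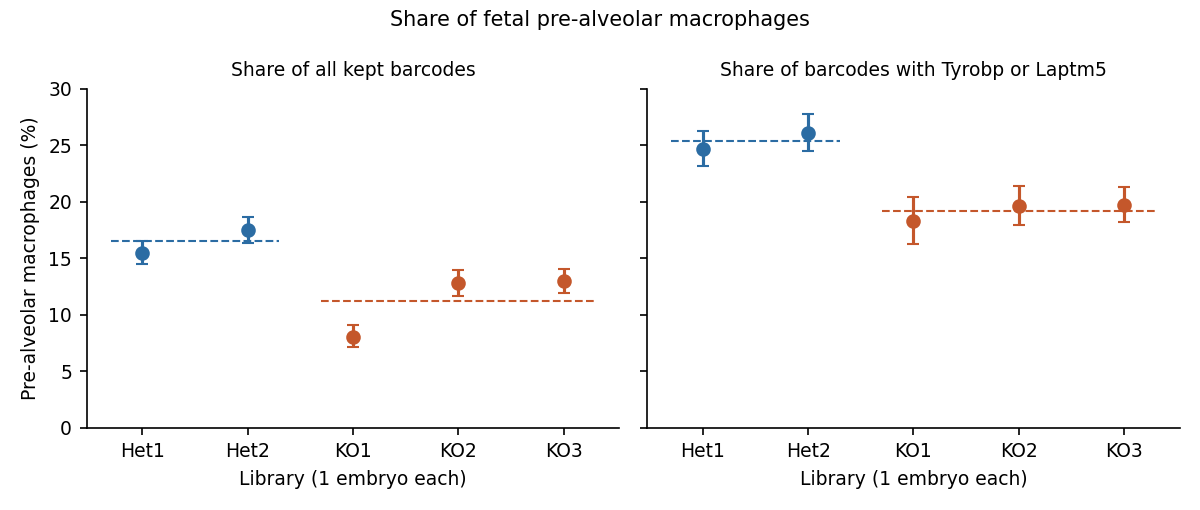
Share of fetal pre-alveolar macrophages in each library, in percent of all kept barcodes (left) and of barcodes with Tyrobp or Laptm5 (right). Points are libraries of 1 embryo, bars are exact 95% binomial intervals and dashed lines are group means. The 2 Het libraries lie above the 3 KO-labelled ones in both panels, and KO1 is lowest.

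Cells that met all conditions but carried both Mki67 and Top2a were left out as dividing. They numbered 254 and 291 in Het and 144, 223 and 291 in KO-labelled libraries. As a share of members plus these cells they were 25.3% in Het1 and 28.4% in Het2, against 36.4%, 34.4% and 35.8% in KO1 to KO3. The means were 26.9% ± 2.13 (SD, n = 2) and 35.5% ± 1.01 (SD, n = 3). The dividing share was thus higher in each KO-labelled library, given as a description because the rule used both genes.

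Gene expression was compared on the UMIs of all members summed per library, with edgeR's quasi-likelihood test over all genes. Of 11453 genes tested, 398 (3.48%) passed a Benjamini-Hochberg adjusted p of 0.05, 141 higher (1.23%) and 257 lower (2.24%) in KO-labelled members. All 398 separated the groups without overlap, as did 36.9% of all genes tested. Before adjustment, 2204 genes had a p under 0.05. The median log2 fold change of all genes was 0.01. Higher genes made up 35.4% of the calls, and 47.7% (169 of 354) with scaling by library size alone. The count depended on single libraries: it was 50 without Het1, 51 without Het2, 35 without KO2, 401 without KO1 and 891 without KO3. With sex as a covariate 50 genes (0.437%) passed, 40 of them among the 398, and every one of the 398 kept its direction.

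The group with the lowest median was the interferon-stimulated genes, which cells switch on in response to type I interferon. Of 25 tested, 10 fell and none rose, where 2.24% of all genes fell, and the median log2 fold change was -0.99. In 22 of 25 the groups did not overlap, as in 36.9% of all genes. Slfn5 (ENSMUSG00000054404, chr11:82951349-82964840, plus strand), a Schlafen family protein, had 25.4 and 27.4 CPM in Het1 and Het2 and 3.69, 5.11 and 7.95 CPM in KO1 to KO3. Its fall was the steepest of the list among genes of at least 10 CPM (log2 fold change -2.14, SE 0.21, edgeR adjusted p = 0.00297), and both Het libraries lay above all others. Isg15 (ENSMUSG00000035692, chr4:156199424-156200818, minus strand), a ubiquitin-like modifier, had 15.9 and 18.8 CPM against 6.06, 3.36 and 5.30 CPM (log2 fold change -1.85, SE 0.21, edgeR adjusted p = 0.00411). Oas3 (chr5:120753098-120777661, minus strand), an enzyme that senses double-stranded RNA, had 11.1 and 10.1 CPM against 3.16, 1.60 and 3.01 CPM (log2 fold change -2.04, SE 0.25, edgeR adjusted p = 0.00682). Trim30a, a regulator of innate signalling with near-identical relatives that could share its reads, went from 58.3 ± 1.90 to 35.3 ± 2.82 CPM (SD, n = 2 and 3), a log2 fold change of -0.74 (SE 0.08, edgeR adjusted p = 0.00393). The other genes that fell were the antiviral Ifit1, Ifit2 and Rsad2, the transcription factor Irf7, the ISG15 protease Usp18, and Ifi204, which belongs to a family of close copies.

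Windows of the RefSeq promoters of these genes are shown because the list shares a known control sequence, the interferon-stimulated response element. Promoters are those of the RefSeq table for GRCm38.p6, 250 bases before to 50 after the start, and 8 of the 10 genes had an entry by symbol. The motif GAAANNGAAA was searched on both strands, where matches may overlap each other. It was found for 6 of 8 genes, Ifit1, Isg15, Oas3, Rsad2, Slfn5 and Trim30a, and for 3.98% of the 9030 tested genes with an entry. A match is a description of the letters and does not show binding. Capitals mark the matches in 4 windows on the strand of each gene: chr4:156200830-156200929 for Isg15 (minus strand), chr19:34640759-34640858 for Ifit1 (plus strand), chr5:120777680-120777779 for Oas3 (minus strand) and chr11:82951902-82952001 for Slfn5 (plus strand). The RefSeq start of Slfn5 lies downstream of the GENCODE start given above, so that its window falls inside the GENCODE gene. Isg15 had 3 matches that overlap each other and Ifit1 had 2, both on the opposite strand.
Isg15: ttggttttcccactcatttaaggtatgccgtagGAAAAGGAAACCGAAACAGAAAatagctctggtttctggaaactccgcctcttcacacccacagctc
Ifit1: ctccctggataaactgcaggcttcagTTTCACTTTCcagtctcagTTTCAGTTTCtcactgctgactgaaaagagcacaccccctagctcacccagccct
Oas3: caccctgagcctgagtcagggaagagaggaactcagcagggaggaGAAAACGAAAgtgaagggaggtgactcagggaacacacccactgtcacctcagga
Slfn5: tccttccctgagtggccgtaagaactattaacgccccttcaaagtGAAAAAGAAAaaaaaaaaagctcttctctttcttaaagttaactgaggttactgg

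Interferon genes were not spread evenly over the members. With each cell thinned to 5000 UMIs, the tenth of the members with the most UMIs of the list held 54.3% and 59.1% of them in Het1 and Het2, against 39.2%, 42.8% and 56.4% in KO1 to KO3. At the same depth, at least 3 genes of the list were seen in 35.1% and 29.4% of Het members and in 25.7%, 19.9% and 26.5% of KO-labelled members. The top 1% of members (3 to 7 cells per library) held 42.6% and 27.3% of the Slfn5 UMIs in Het1 and Het2. The list's count of falls was 1 of 26 tested when the upper limits on maturation and C1q genes were dropped (Slfn5 log2 fold change -0.75, edgeR adjusted p = 0.378), 1 of 27 with 2 markers enough and 4 of 17 with all 6 markers. Of the 25, it was 4 with sex as a covariate (Slfn5 still passed, edgeR adjusted p = 0.00405), 4 without KO2, 5 without Het1 or Het2, and 16 without KO3. Free RNA was read as UMIs per red-cell barcode. Rsad2 was more abundant there than in Het members (155% of the level), and whether those UMIs were free RNA was not tested. Slfn5 stood there at 2.32% and Isg15 at 10.8% of the level in Het members.

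Genes of alveolar macrophage maturation outside the rule also fell. Of 25 tested, 9 fell (2.24% of all genes did) and none rose, with a median log2 fold change of -0.47 against 0.01 for all genes. Trim29 (ENSMUSG00000032013, chr9:43310848-43336115, plus strand), an adaptor that restrains innate responses in alveolar macrophages, had 20.3 and 15.05 CPM in Het1 and Het2 and 6.06, 5.11 and 6.99 CPM in KO1 to KO3. The groups lay well apart (log2 fold change -1.53, SE 0.19, edgeR adjusted p = 0.00707). Trim29 was seen in 17.8% and 16.6% of Het members and in 6.75%, 6.35% and 8.64% of KO-labelled members. After thinning to 5000 UMIs the shares were 7.86% and 7.28% against 2.86%, 2.84% and 2.92%, and in barcodes without Tyrobp or Laptm5 (median 8525 to 11186 UMIs) at most 0.172%. Itgax, the CD11c integrin of mature alveolar macrophages (chr7:128129547-128150657, plus strand), had 11.7 and 12.2 CPM against 3.42, 5.75 and 5.06 CPM (log2 fold change -1.28, SE 0.20, edgeR adjusted p = 0.0142). Slc7a2, a carrier of arginine and lysine, went from 106 ± 3.97 to 72.6 ± 5.10 CPM (SD, n = 2 and 3).

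Pparg, the nuclear receptor that drives the fate, fell less: 104 and 106 CPM in Het1 and Het2 against 80.1, 85.2 and 85.4 CPM (log2 fold change -0.33, SE 0.07, edgeR adjusted p = 0.0319). The other members of the list that fell were Cd9, F7, Serpinb1a, Bhlhe41 and Gpnmb. Siglecf, the classical surface marker of adult alveolar macrophages, was at 1.12 to 2.91 CPM in all libraries and did not pass. Among members with no maturation or C1q-list gene at all, 7 of the list fell, Trim29 with a log2 fold change of -1.53 (edgeR adjusted p = 0.011). With sex as a covariate 2 of the list passed, and Trim29 did not (log2 fold change -1.34, edgeR adjusted p = 0.0515). Without Het1, without Het2 or without KO2, 1 of the list passed. With no upper limit on the maturation and C1q-list genes, 18 fell. That set held 909 and 872 cells in Het and 322, 467 and 594 in KO-labelled libraries. Of these, 134 and 121 against 6, 7 and 18 were maturing cells. Cells with more C1q-list genes were let in too, and the part of either kind was not tested.

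The receptors that feed this programme were read next. Both chains of the TGF-beta receptor fell: Tgfbr1 from 98.9 ± 1.85 to 74.7 ± 2.902 CPM (log2 fold change -0.40, SE 0.07, edgeR adjusted p = 0.019) and Tgfbr2 from 73.3 ± 0.40 to 56.1 ± 4.85 CPM (log2 fold change -0.38, SE 0.08, edgeR adjusted p = 0.0367; SD, n = 2 and 3). The other 15 genes of the list of growth factor receptors and lineage factors did not pass, where 2.24% of all genes fell. The list's median log2 fold change was -0.19. Csf2rb, the shared beta chain of the GM-CSF receptor, had 452 and 458 CPM in Het and 492, 476 and 420 CPM in KO-labelled members, so that the groups overlapped. Csf2ra, its alpha chain, had 177 and 171 against 159, 151 and 156 CPM (log2 fold change -0.16, edgeR adjusted p = 0.215). Neither Tgfbr1 nor Tgfbr2 passed with sex as a covariate or without Het1, Het2 or KO2. Tgfbr2 also did not pass without KO1 (edgeR adjusted p = 0.0588), with DESeq2 or with library size scaling alone.

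Genes of lipid and surfactant handling showed small shifts. Of 27 tested, 2 fell (2.24% of all genes did) and none rose, and the median log2 fold change was -0.22. Lipa, the acid lipase that frees fatty acids and cholesterol in lysosomes, had 167 and 175 CPM in Het1 and Het2 against 132, 117 and 129 CPM in KO1 to KO3 (log2 fold change -0.45, SE 0.07, edgeR adjusted p = 0.019). Hilpda, a lipid droplet protein, had 121 and 127 against 93.5, 71.9 and 86.2 CPM (log2 fold change -0.57, SE 0.10, edgeR adjusted p = 0.0195). Its difference was -0.27 (edgeR adjusted p = 0.302) when members with 3 or more markers of another cell type were left out. With edgeR, 0 of 18 cholesterol synthesis genes passed (2 at an unadjusted p under 0.05), and 0 with DESeq2. In the list of lysosome and phagocytosis genes 5 of 32 fell, among them the cathepsins Ctsd and Ctsb, the lysosome regulator Mitf and Gpnmb, with none higher. Ctsd (chr7:142375911-142388038, minus strand) had 1322 and 1338 CPM against 1059, 952 and 999 CPM (log2 fold change -0.41, SE 0.07, edgeR adjusted p = 0.0207). Neither these 5 nor Lipa and Hilpda passed with sex as a covariate, without Het1, without Het2 or without KO2.

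**Figure D2:**
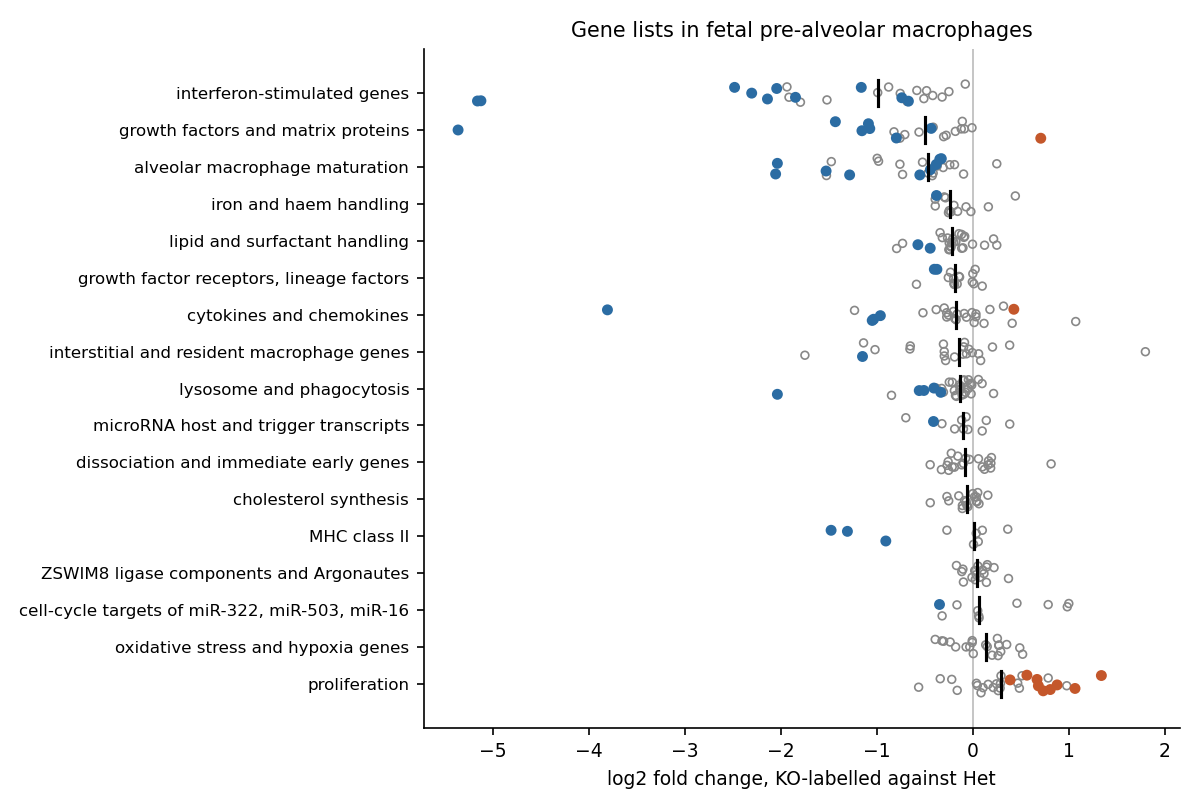
Log2 fold change (x axis) of every tested gene of 17 lists in fetal pre-alveolar macrophages, rule genes left out. Filled points passed an edgeR adjusted p of 0.05 (blue lower, orange higher in KO-labelled members), open points did not, and black bars are list medians. Interferon genes have the lowest list median (-0.99) and proliferation genes the highest (0.29).

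The inflammatory cytokines Il1a, Tnf and Ccl3 fell in level, while most of their list did not pass. Il1a (ENSMUSG00000027399, chr2:129299610-129309972, minus strand), the alarmin interleukin-1 alpha, had 86.3 and 80.4 CPM in Het1 and Het2 and 45.6, 40.7 and 37.2 CPM in KO1 to KO3. The lower Het library stood well above the highest KO-labelled one (log2 fold change -1.04, SE 0.09, edgeR adjusted p = 0.0019). Tnf (chr17:35199381-35202007, minus strand) had 60.1 and 64.3 CPM against 30.6, 25.2 and 33.8 CPM (log2 fold change -1.05, SE 0.11, edgeR adjusted p = 0.00332). Ccl3 (chr11:83647844-83649355, minus strand), a chemokine that draws monocytes and lymphocytes, had 117 and 148 CPM against 73.0, 64.2 and 67.6 CPM (log2 fold change -0.96, SE 0.10, edgeR adjusted p = 0.00367). Of the 27 cytokine and chemokine genes tested, 4 fell, against 2.24% of all genes (also Ccl17, at most 2.62 CPM) and 1 rose. The median of the list was -0.17.

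For Tnf, the shares of cells with a UMI overlapped between the groups. It was seen in 19.7% and 22.0% of Het members and in 20.2%, 15.8% and 15.9% of KO-labelled members, and in 10.0% and 11.9% against 12.7%, 7.58% and 9.36% after thinning. In barcodes without Tyrobp or Laptm5 its share was 0.457% to 1.15%. The top 1% of members held 48.3% and 35.5% of the Tnf UMIs in Het1 and Het2. Il1a, Tnf and Ccl3 all passed with sex as a covariate and without any single library. Among members with no maturation or C1q-list gene the differences were -0.50 for Il1a (edgeR adjusted p = 0.118) and -0.45 for Tnf (0.288), while Ccl3 passed at -0.75. With all 6 markers required, Il1a (-0.70, edgeR adjusted p = 0.0829) and Ccl3 (-0.32, 0.295) did not pass and Tnf did. Tnf did not pass (-0.66, 0.068) when members with 3 or more markers of another cell type were left out. In the list of genes that dissociation induces, such as Fos and Jun, 0 of 22 passed with edgeR (6 had an unadjusted p under 0.05) and 2 passed with DESeq2.

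Genes of DNA replication rose. Cells with both Mki67 and Top2a had been left out, but cells with Mki67 alone remained. Mki67 was seen in 26.3% and 26.8% of Het members and in 32.9%, 28% and 29.9% of KO-labelled members. The part of these cells in the rise was not tested. Of 29 proliferation genes tested, 9 rose and none fell, where 1.23% of all genes rose, and the list's median log2 fold change was 0.29. They were the 6 subunits of the replicative helicase, Mcm2 to Mcm7, the ribonucleotide reductase subunits Rrm1 and Rrm2, and the microtubule regulator Stmn1. Mcm6 (ENSMUSG00000026355, chr1:128331590-128359664, minus strand) had 26.5 and 31.4 CPM in Het1 and Het2 and 62.4, 67.1 and 53.4 CPM in KO1 to KO3. The KO-labelled libraries were all higher than both Het ones (log2 fold change 1.06, SE 0.11, edgeR adjusted p = 0.00367). Mcm3 had 44.9 and 49.9 against 79.8, 86.9 and 70.3 CPM (log2 fold change 0.73, SE 0.10, edgeR adjusted p = 0.00865). Rrm2 (chr12:24708241-24714146, plus strand), which makes deoxyribonucleotides, had 4.57 and 4.66 against 10.0, 13.3 and 11.4 CPM (log2 fold change 1.34, SE 0.19, edgeR adjusted p = 0.0102).

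Other genes of S phase were among the 12 largest rises of genes whose higher group mean was 10 CPM or more. Dut (chr2:125247190-125258608, plus strand), which keeps uracil out of DNA, had 22.1 and 24.4 CPM against 47.1, 52.4 and 43.8 CPM (log2 fold change 1.04, SE 0.10, edgeR adjusted p = 0.00297). Uhrf1 and Hells, which maintain DNA methylation, went from 8.13 ± 2.65 to 18.4 ± 4.73 CPM and from 14.4 ± 4.70 to 27.7 ± 4.09 CPM, and Cdca7 from 17.5 ± 2.50 to 31.6 ± 2.36 CPM (SD, n = 2 and 3). Genes of mitosis in the same list did not pass: Plk1, Aurka, Ccnb1, Cenpf and Ube2c had log2 fold changes from -0.22 to 0.25. The rule had left out cells with both Mki67 and Top2a, so these values cannot show whether mitosis differed. With each cell thinned to 5000 UMIs, a UMI of Mcm2 to Mcm7 was seen in 37.3% and 39.1% of Het members and in 52.7%, 51.9% and 47.0% of KO-labelled members. At least 3 of the 6 were seen in 6.50% and 7.84% against 13.5%, 17.1% and 11.3%.

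The list's count was again 9 when dividing cells were kept. Mcm6 and Dut passed under all 21 alternatives. The count was 2 with sex as a covariate, 1 without Het1, 3 without Het2, 2 without KO2 and 4 with 2 markers enough. Slc16a1, a lactate carrier, and Scel, a cornified envelope protein, also belonged to the largest rises, at 10.8 ± 0.38 and 8.59 ± 0.76 CPM in Het against 19.4 ± 3.70 and 15.9 ± 3.11 CPM in KO-labelled members.

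The promoters of the replication genes are shown because such genes commonly carry sites for E2F factors. The letters TTTGGCGC, TTTCCCGC, TTTCGCGC and TTTGCCGC were searched on both strands, where matches may overlap each other. Of the 9 genes that rose, 7 had a RefSeq entry and 4 of these a match, Mcm3, Mcm5, Mcm6 and Mcm7, against 4.94% of the tested genes with an entry. No match says only that these letters are absent from that window. Capitals mark the matches at chr1:128359706-128359797 for Mcm6 (minus strand), chr8:75109315-75109412 for Mcm5 (plus strand) and chr5:138171996-138172093 for Mcm7 (minus strand), all GRCm38.p6. In Mcm5 2 matches overlap on opposite strands.
Mcm6: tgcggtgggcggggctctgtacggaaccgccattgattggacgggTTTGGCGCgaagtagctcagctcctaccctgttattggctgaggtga
Mcm5: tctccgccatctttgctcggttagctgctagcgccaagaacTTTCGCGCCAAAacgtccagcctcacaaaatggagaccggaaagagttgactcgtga
Mcm7: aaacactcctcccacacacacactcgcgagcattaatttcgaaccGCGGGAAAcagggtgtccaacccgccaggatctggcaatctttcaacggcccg

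The largest rise among genes whose higher group mean was 10 CPM or more was that of Enah, an actin regulator of the Ena/VASP family that acts at the leading edge of cells (ENSMUSG00000022995, chr1:181896384-182019990, minus strand). It had 23.5 and 23.2 CPM in Het1 and Het2 and 55.0, 70.6 and 57.3 CPM in KO1 to KO3 (log2 fold change 1.39, SE 0.11, edgeR adjusted p = 0.0019). Enah was seen in 23.4% and 21.2% of Het members and in 41.7%, 53.4% and 48.6% of KO-labelled members, or in 8.81% and 9.66% against 22.4%, 27.7% and 23.4% after thinning. In barcodes without Tyrobp or Laptm5, which include cell types that express it, the share was 31.8% to 45.1%. Its free RNA stood at 1.27% of the level in KO-labelled members, and it passed under all 21 alternatives. Ccn3, a matricellular protein (chr15:54745702-54754039, plus strand), had 30.3 and 34.1 against 54.3, 61.8 and 61.4 CPM (log2 fold change 0.89, SE 0.09, edgeR adjusted p = 0.00297). Gapt, an adaptor of immune cells, had 9.93 and 12.6 against 20.5, 22.5 and 20.1 CPM (log2 fold change 0.90, SE 0.14, edgeR adjusted p = 0.0142).

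Growth factors and matrix proteins moved mainly down, with 1 abundant exception. Of 20 genes tested, 7 fell and 1 rose, where 2.24% of all genes fell and 1.23% rose, and the median log2 fold change was -0.50. Thbs1, the adhesive glycoprotein thrombospondin 1, which can activate latent TGF-beta (chr2:118111876-118127133, plus strand), had 779.8 and 795 CPM in Het1 and Het2 and 1534, 1105 and 1219 CPM in KO1 to KO3. All KO-labelled libraries were higher (log2 fold change 0.71, SE 0.12, edgeR adjusted p = 0.0206), and Thbs1 was seen in 63.5% and 65.2% of Het against 90.1%, 82.8% and 87.1% of KO-labelled members. In barcodes without Tyrobp or Laptm5 that share was 43.2% to 55.9%. It did not pass with sex as a covariate (edgeR adjusted p = 0.0768), without Het1 (0.152) or without Het2 (0.138).

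Tgm2, a crosslinking enzyme, went from 32.7 ± 0.10 to 19.4 ± 4.94 CPM (SD, n = 2 and 3; log2 fold change -0.80, SE 0.15, edgeR adjusted p = 0.0255). Sparc, a collagen-binding protein, went from 116 ± 33.4 to 41.6 ± 18.2 CPM (SD, n = 2 and 3; log2 fold change -1.43, SE 0.27, edgeR adjusted p = 0.0261). The top 1% of members held 52.3% and 69.7% of the Sparc UMIs in Het1 and Het2 and 51.0% in KO3, against 10.6% and 11.7% in KO1 and KO2. Leaving out members with 3 or more markers of another cell type gave Sparc a difference of -0.72 (edgeR adjusted p = 0.00536). The other genes of the list that fell were Igf1, Inhba, Gdf15, Tgfbi and Ereg. Nearly all of the Ereg UMIs lay in the top 1% of members of each library that had any. The list's count of falls was 1 with sex as a covariate, without Het1, without Het2 and without KO2.

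**Figure D3:**
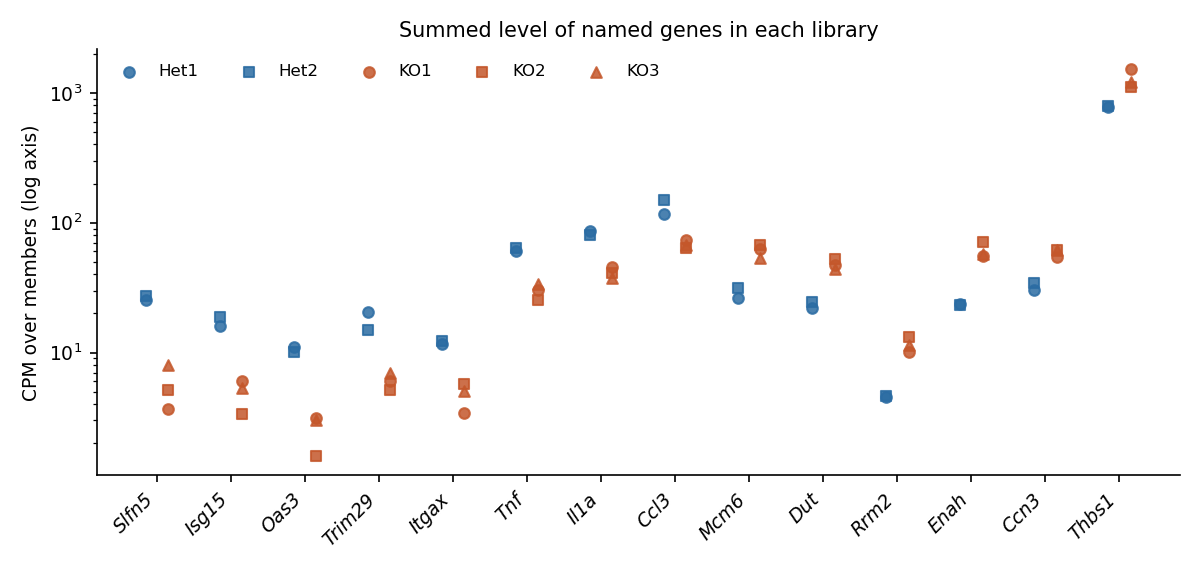
Summed level of 14 named genes in CPM over all members (log axis). Each point is 1 library, Het in blue and KO-labelled in orange. The genes were chosen among those whose groups do not overlap, with falls from Slfn5 to Ccl3 on the left and rises from Mcm6 to Thbs1 on the right.

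Several of the steepest falls came from few cells or from transcripts typical of other lung cells. The largest among genes whose higher group mean was 10 CPM or more was that of Igfbp5, a binding protein of insulin-like growth factors, with 55.3 and 82.9 CPM in Het1 and Het2 and 3.16, 2.56 and 22.4 CPM in KO1 to KO3 (log2 fold change -2.64, SE 0.50, edgeR adjusted p = 0.0255). In the Het libraries 94.6% and 96.3% of the Igfbp5 UMIs lay in the top 1% of members, and the difference was -0.20 (edgeR adjusted p = 0.822) without the members that had 3 or more markers of another cell type. Igfbp6, Gng11 and Wfdc2 also did not pass without these members. Members with 3 or more mesenchymal markers numbered 11 and 20 in Het and 10, 3 and 47 in KO-labelled libraries, and with epithelial ones 286 and 195 against 122, 83 and 161. Across all 398 genes, 32 had at least 50% of the higher group's UMIs in the top 1% of members, each of them lower in KO-labelled members.

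Scgb1a1, the secretoglobin of club cells, had 55.8 and 37.1 CPM against 18.7, 9.43 and 15.5 CPM (log2 fold change -1.71, SE 0.23, edgeR adjusted p = 0.00865). UMIs per red-cell barcode stood at 58.6% of the UMIs per Het member for Scgb1a1 and at 67.7% for Scn7a, a sodium channel that fell from 10.4 ± 3.84 to 3.19 ± 0.70 CPM. Such a level was over 50% for 9 of the 398 genes. Wfdc17, a small secreted inhibitor of macrophages, had 158 and 185 CPM against 37.9, 82.0 and 58.5 CPM (log2 fold change -1.50, SE 0.21, edgeR adjusted p = 0.01), with free RNA at 0.734% of that level. Of 9 genes of MHC class II, which present antigen, 3 fell (H2-Eb1, H2-Ab1 and H2-Aa), where 2.24% of all genes did. The list's median was 0.01. H2-Eb1 had 27.8 and 24.7 against 7.90, 5.43 and 13.6 CPM, with 91.2% to 97.1% of its UMIs in the top 1% of members of each library. None of the 3 passed without members that carried 3 or more markers of another cell type, and all 3 were higher in KO-labelled members when at least 4 markers were required.

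Few transcripts tied to microRNA biology passed, where 2.24% of all genes fell and 1.23% rose. Of 11 microRNA host and trigger transcripts tested, 4 had an unadjusted p under 0.05 and 1 fell after adjustment: Oip5os1 (Cyrano, the long noncoding trigger of miR-7 decay; ENSMUSG00000085438, chr2:119594297-119607502, plus strand). It had 94.7 and 88.3 CPM in Het1 and Het2 and 66.4, 66.5 and 72.6 CPM in KO1 to KO3 (log2 fold change -0.41, SE 0.07, edgeR adjusted p = 0.0206). It did not pass with sex as a covariate, without Het1, without Het2 or without KO2. With edgeR, 0 of 18 ligase and Argonaute genes passed (0 at an unadjusted p under 0.05), and 0 with DESeq2, with a median log2 fold change of 0.04. Among 10 predicted or known cell-cycle targets of miR-322, miR-503 and miR-16, 5 had an unadjusted p under 0.05 and 1 passed. The cyclin-dependent kinase gene Cdk6 fell from 109 ± 3.06 to 85.1 ± 4.76 CPM (SD, n = 2 and 3; log2 fold change -0.36, SE 0.07, edgeR adjusted p = 0.0319). Cdk6 did not pass under 9 of the 21 alternatives, among them sex as a covariate, the omission of Het1, Het2 or KO2, thinning and the omission of members with 3 or more markers of another cell type. Its partner Ccnd1, cyclin D1, had 13.004 and 12.8 against 29.2, 32.3 and 17.0 CPM and did not pass (log2 fold change 0.98, edgeR adjusted p = 0.0517), but it was the 1 gene of the list that rose with DESeq2 and with library size scaling alone. In the list of iron and haem handling 1 of 14 fell (Hebp1, from 225 ± 5.51 to 173 ± 3.08 CPM). In that of interstitial macrophage genes 1 of 22 fell (Igf1), where 2.24% of all genes did. Of 21 oxidative stress and hypoxia genes 0 passed with edgeR (9 at an unadjusted p under 0.05), and 1 passed with DESeq2.

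C1q macrophages of the same embryos, 134 and 136 cells in Het and 151, 221 and 245 in KO-labelled libraries, served as the comparison class. They had at least 3 of the 4 C1q-list genes and at most 1 pre-alveolar marker. In them 113 of 8033 genes passed (1.41%), 12 higher and 101 lower, at a median depth of 4862 to 6019 UMIs per cell. A fit over both classes with the library as a block tested whether the KO-labelled minus Het difference itself differed between the classes. Of 10759 genes, 121 passed (1.12%), 68 with a higher (0.632%) and 53 with a lower value (0.493%) in pre-alveolar macrophages, and 38 of the 121 were among the 398. The count was 42 without Het1 and 46 without Het2.

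The cytokine and lysosomal falls differed between the classes. Il1a had 169 and 105 CPM in C1q macrophages of Het1 and Het2 and 131, 146 and 120 CPM in those of KO1 to KO3, so the groups overlapped there, and the difference between the classes was -1.01 (SE 0.18, edgeR adjusted p = 0.00964). For Tnf, with 137 and 171 against 382, 177 and 176 CPM in C1q macrophages, it was -1.61 (SE 0.25, edgeR adjusted p = 0.0027), and for Ccl3, with 762 to 866 against 759 to 989 CPM, it was -1.09 (SE 0.15, edgeR adjusted p = 0.00115). For Ctsd and Lipa the differences were -0.90 and -0.97 (edgeR adjusted p = 0.000497 and 0.00226). The rise of Thbs1 also differed, by 1.08 (SE 0.17, edgeR adjusted p = 0.0027), with 270 and 321 against 353, 189 and 166 CPM in C1q macrophages. For Dut the difference was 1.47 (SE 0.27, edgeR adjusted p = 0.00964).

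The interferon genes Slfn5 and Isg15 fell in both classes. In C1q macrophages Slfn5 had 337 and 233 CPM in Het and 109, 47.9 and 59.5 CPM in KO-labelled libraries (log2 fold change -2.03, edgeR adjusted p = 0.000706), and the difference between the classes was -0.07 (SE 0.31, edgeR adjusted p = 0.955). Isg15 fell there too (log2 fold change -2.12, edgeR adjusted p = 0.000961), with a difference of 0.28 (SE 0.38, edgeR adjusted p = 0.827). The difference did not pass for Oas3 (-0.42, edgeR adjusted p = 0.797) or Trim30a (0.67, 0.085). Falls were not of equal size for every gene lower in both classes. Those of Mndal and Ifi211 were steeper in C1q macrophages (differences 0.92 and 1.22, edgeR adjusted p = 0.00964 and 0.0107). Mcm6 and Enah did not pass the test of the difference (0.65, SE 0.32, edgeR adjusted p = 0.402, and 0.99, SE 0.42, edgeR adjusted p = 0.328), so no statement that they are particular to either class can be made.

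**Figure D4:**
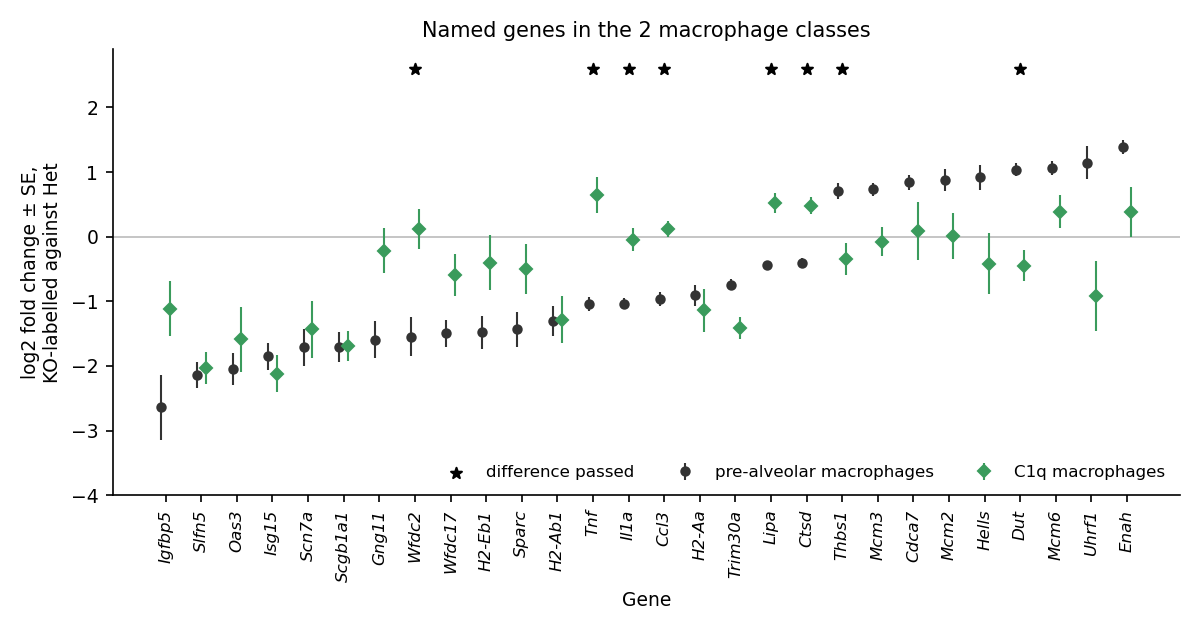
Log2 fold change (KO-labelled against Het, with SE) of 28 named genes in pre-alveolar macrophages (black circles) and C1q macrophages (green diamonds): of the genes tested in both classes, those with a log2 fold change of at least 0.7 in size in the former or a passing difference between the classes. Stars mark the 8 genes whose difference between the classes passed an edgeR adjusted p of 0.05. Il1a, Tnf and Ccl3 lie near -1 in pre-alveolar and near or above 0 in C1q macrophages, while Slfn5 and Isg15 lie near -2 in both.

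Maturing alveolar macrophages, the class next to the members, had fewer than 20 cells in each KO-labelled library and were not tested. Their values are given side by side. Fabp4 and Car4 are among the maturation genes that divide maturing cells from members. Their gap between these classes was therefore set by the rule, which also bounded their levels within each class. Fabp4, the fatty acid binding protein of mature cells, was at 1482 and 1619 CPM in the maturing cells of Het and at 54.2, 2110.4 and 894 CPM in the 6, 7 and 18 such cells of KO1 to KO3. In the members it was at 54.0 and 29.0 against 16.6, 14.7 and 19.99 CPM. Car4, carbonic anhydrase 4, was at 949 and 892 against 126, 235 and 634 CPM in maturing cells, and at 25.4 and 45.6 against 15.5, 46.3 and 9.28 CPM in members, where the groups overlapped. Trim29 was at 36.3 and 32.9 against 18.1, 52.3 and 38.9 CPM in maturing cells.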

How the data were processed

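Single-cell 3′ UMI counts of whole lung were analysed for 5 libraries, 2 Het and 3 KO. The authors deposited raw UMI counts, a whole number for each gene in each barcode. Cell Ranger 4.0.0 and mm10 are named, per the submitters' processing notes. The annotation and the filter on barcodes are not given in the sources used here. Of 32285 gene IDs, 32158 matched GENCODE M21 (GRCm38), which gave the gene coordinates. Members and gene lists were chosen with earlier results of these data known.

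Members were found by the rule above, and their UMIs were summed per library. Sums were fitted with edgeR 4.0.16 (TMM scaling, filterByExpr by group, glmQLFit and glmQLFTest, two-sided, Benjamini-Hochberg adjusted over all genes tested, threshold 0.05). CPM used TMM-scaled sums over the tested genes. The class difference was fitted with a term for each library. Shares of barcodes were compared with an exact permutation test over libraries. No doublets were removed in the main analysis. Red-cell barcodes (over 50% haemoglobin UMIs, under 500 genes) gave the free RNA level. On simulated counts, 85.4% of changed genes (log2 value of 1) were recovered with 8 false calls among 11287 genes for the members. For the difference, 43.1% were recovered with 5 false calls among 9890 genes. The simulation used 1 common dispersion (0.00748) for all genes and changed only genes above a minimum count. It held no sex effect and no outlying library, so these figures apply to that setting only.

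Named genes had an adjusted p under 0.05, no overlap of the groups and at least 10 CPM in the higher group: the 12 largest changes in each direction, up to 3 genes with the smallest p per list, passing host or trigger transcripts, the 3 largest differences between classes each way, and Zswim8. Sex-linked, haemoglobin, mitochondrial and rule genes were left out. Other genes of the lists that passed are named beside their counts, except for results that are not reported here. Csf2ra, Csf2rb, Siglecf, Ccnd1, Pparg, Mndal, Ifi211 and the mitotic genes were picked with their values in view. The alternatives comprised DESeq2, scaling by library size, other low-count filters, stricter cell filters, 2 or 4 markers, other upper limits, dividing cells kept, thinning to 5000 UMIs, doublets removed, sex as a covariate, a replicate block and the omission of single libraries. All 6 markers, and leaving out members with 3 or more markers of another cell type, were chosen after seeing the data.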

Additional observations from a re-analysis of the deposited data

Results flagged for a closer look

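The difference between pre-alveolar and C1q macrophages passed (edgeR adjusted p under 0.05) for 8 named genes: Wfdc2 (-1.60), Tnf (-1.61), Il1a (-1.01), Ccl3 (-1.09), Lipa (-0.97), Ctsd (-0.90), Thbs1 (1.08) and Dut (1.47), each as the log2 difference in pre-alveolar minus that in C1q macrophages. The 3 largest positive values were those of Stfa2 (5.26), Csta2 (4.99) and Cstdc5 (4.27), stefin A genes whose near-identical copies can share reads and which neutrophils also express. The neutrophil marker list moved with them in C1q macrophages, at 1147 and 869 CPM in Het against 121, 406 and 108 CPM in KO-labelled libraries, and its part was not tested. Csta2 had 232 CPM in C1q macrophages of Het1 but 9.57 CPM in those of Het2, against 1.86 to 3.22 CPM in KO-labelled ones. Among pre-alveolar macrophages the top 1% of cells held 50% to 95.6% of the Stfa2 UMIs in each library. Stfa2 had 38.7 and 53.1 CPM in C1q macrophages of Het1 and Het2 and 0, 4.47 and 1.07 CPM in those of KO1, KO2 and KO3, while pre-alveolar macrophages had 6.95 and 15.6 against 1.58, 21.3 and 27.1 CPM. The 3 largest negative values were those of the platelet chemokine Ppbp (-5.89), the lectin Mgl2 (-3.00) and the transcription factor Bhlhe41 (-2.73). In pre-alveolar macrophages of Het1 and Het2 the top 1% of cells held 72.2% and 98.4% of the Ppbp UMIs (18 and 127). They held 100% of the Mgl2 UMIs (27 and 21). KO1 to KO3 had 0, 1 and 2 UMIs of Ppbp and 0, 2 and 4 of Mgl2. Bhlhe41 had 6.65 and 4.46 CPM in Het and 1.05, 2.40 and 0.602 CPM in KO-labelled pre-alveolar macrophages, against 9.38 and 18.1 and then 23.2, 22.3 and 20.9 CPM in C1q macrophages.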

How the results depend on the processing

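The count of 398 changed genes moved to 142 with 2 of 6 markers enough, 604 with no upper limit on maturation and C1q-list genes, 50 with sex as a covariate, and 35 to 891 when each library was left out. With the replicate number as a block it was 1610. The labels do not say whether equal numbers pair embryos, and that fit is given only as a value. Correlations of deviations were 0.12 for Het1 with KO1 and -0.02 for Het2 with KO2. With 2 Het libraries the deviations mirror each other, so these correlations cannot decide whether embryos were paired. The count for the difference between classes (121) was 325 with no low-count filter and 42 to 155 with each library left out. Of 962 values of the 46 named changed genes under 21 alternatives, 745 kept direction and side of the threshold, 211 kept the direction but did not pass, and 6 reversed. These were H2-Eb1 (0.59 and 0.37), H2-Ab1 (0.79 and 0.11) and H2-Aa (0.93 and 0.0058), with 4 markers required and with thinning. The mean share of members was lower in KO-labelled libraries under each of the 15 alternatives run for it, but the groups overlapped when members with 3 or more markers of another cell type were left out. With 2 against 3 libraries and 252 members in KO1, the number of libraries limits what could be called. The causes of these shifts were not tested.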
